A study of Homo sapiens with 32 samples.

Results

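In LNCaP cells, a human prostate cancer line whose growth depends on androgen, the response to CSN5i-3, an inhibitor of the protease CSN5, was set against the response to an shRNA that lowers CSN5 itself. The quantity followed gene by gene was an interaction, the CSN5i-3 minus DMSO change less the shCSN5 minus scramble change, and it is called the difference throughout, in log2 units. It was measured in 8 of the 32 libraries of the series and in 20863 genes, those whose symbol occurred once in each of the 2 count tables, out of 21549 symbols in the table of the inhibitor. Of these genes, 17846 had counts high enough to be tested. A positive difference means that a gene rose more, or fell less, with CSN5i-3 than with shCSN5.

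The series covers shRNA and inhibitor experiments in 4 prostate cancer lines, with RNA sequencing of 2 libraries a group. The first LNCaP group had CSN5i-3 at 5 µM and its own control had DMSO, the solvent. The other LNCaP group carried shCSN5, an shRNA against CSN5, and its own control carried a scramble shRNA. The cells came from ATCC, and the labels give neither the time under the inhibitor or the shRNA nor whether shRNA cells were a clone or a pool. The inhibitor libraries carry the project code E and the knockdown libraries the code J, and each project has its own control and its own count table. Agent, project, control and table therefore change together, and their parts in the difference cannot be told apart. Nothing says that the 2 libraries of a group came from separate cultures, so the p values cover no more than the spread of these libraries.

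CSN5 is the product of COPS5 and does the catalysis in the COP9 signalosome, the complex that cuts the small protein NEDD8 off cullins. Cullin-RING ubiquitin ligases work in cycles of NEDD8 attachment and removal, and their substrates include inhibitors of the cell cycle, licensing factors of replication and the antioxidant factor NRF2. An inhibitor blocks the cut but leaves the complex in place, whereas an shRNA removes the subunit. In LNCaP androgen drives luminal genes such as KLK3, which encodes prostate-specific antigen, so prostate identity and the cell cycle are both read in the RNA of this line.

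The promoters of 5 genes are printed here, from RefSeq on build GRCh38.p14. They run from 250 bases before the start of the gene to 50 after it, 5′ to 3′ on the strand of the gene. KLK3 and KLK2 were chosen by name. The others were chosen because their promoters hold the searched letters, by the smallest adjusted p of a called difference, so they are not typical members. KLK3 (chr19:50854665-50854964, plus strand) and KLK2 (chr19:50873189-50873488, plus strand) are androgen-induced neighbours, and the capitals mark the androgen response element of the kallikreins, searched on both strands as GAACA, then any 3 bases, then AGTGCT. TOP2A (chr17:40417847-40418146, minus strand) and CDC20 (chr1:43358731-43359030, plus strand) are mitotic genes, and the capitals mark the cell cycle homology region, searched as TTTGAA on both strands. PGD (chr1:10398814-10399113, plus strand) is an NRF2 target, and the capitals mark the core of the antioxidant response element, searched as TGACNNNGC on both strands.
KLK3: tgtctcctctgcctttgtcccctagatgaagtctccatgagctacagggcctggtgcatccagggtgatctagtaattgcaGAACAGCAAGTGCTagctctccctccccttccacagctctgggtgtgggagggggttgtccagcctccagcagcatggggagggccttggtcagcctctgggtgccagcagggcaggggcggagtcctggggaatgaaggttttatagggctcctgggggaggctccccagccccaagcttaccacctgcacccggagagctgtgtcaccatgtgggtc
KLK2: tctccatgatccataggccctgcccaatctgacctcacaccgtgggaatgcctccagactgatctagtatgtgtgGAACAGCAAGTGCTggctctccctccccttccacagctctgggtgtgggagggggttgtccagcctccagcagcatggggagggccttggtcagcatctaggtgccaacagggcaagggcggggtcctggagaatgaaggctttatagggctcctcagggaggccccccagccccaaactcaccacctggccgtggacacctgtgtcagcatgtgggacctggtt
TOP2A: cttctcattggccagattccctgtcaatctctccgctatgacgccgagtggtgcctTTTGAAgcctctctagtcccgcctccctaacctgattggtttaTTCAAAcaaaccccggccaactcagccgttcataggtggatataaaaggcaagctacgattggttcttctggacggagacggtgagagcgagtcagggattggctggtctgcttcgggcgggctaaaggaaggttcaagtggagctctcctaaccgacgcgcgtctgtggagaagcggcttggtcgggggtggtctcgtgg
CDC20: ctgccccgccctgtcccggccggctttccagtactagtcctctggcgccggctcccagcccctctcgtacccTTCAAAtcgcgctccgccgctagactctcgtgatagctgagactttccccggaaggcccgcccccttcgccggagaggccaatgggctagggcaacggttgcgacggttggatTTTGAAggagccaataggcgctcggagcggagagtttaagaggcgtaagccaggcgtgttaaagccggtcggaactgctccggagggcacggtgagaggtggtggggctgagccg
PGD: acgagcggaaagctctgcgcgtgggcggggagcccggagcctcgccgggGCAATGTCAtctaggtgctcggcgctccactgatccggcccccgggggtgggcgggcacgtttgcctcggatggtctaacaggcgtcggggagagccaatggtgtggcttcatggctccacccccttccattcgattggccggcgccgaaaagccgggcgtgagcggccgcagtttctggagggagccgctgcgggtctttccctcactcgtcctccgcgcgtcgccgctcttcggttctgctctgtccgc

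List members were searched only where the reference held a single promoter for the gene, a limit that the counts over all promoters did not have. The kallikrein element lay in the promoters of KLK3 and KLK2 alone among the 10 androgen-induced genes searched. It lay in 15 of all 35116 promoters (0.0427%). TTTGAA or its reverse complement lay in 15 of 21 promoters searched of the mitotic list (71.4%), against 5324 of all promoters (15.2%). The antioxidant core lay in 4 of 13 promoters searched of the NRF2 list (30.8%), against 4687 of all promoters (13.3%). These are matches of letters in a window, not measured sites.

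Library totals were 39.8 and 43.8 M counts with CSN5i-3, 37.7 and 40.6 M with DMSO, 28.0 and 28.0 M with shCSN5, and 30.9 and 28.4 M with scramble. Genes with at least 10 counts numbered 17210 to 17419 in the inhibitor libraries and 14149 to 14516 in the knockdown libraries. The 2 shCSN5 libraries stood apart from each other: their chi-square per gene was 72.6, against 3.14 for CSN5i-3, 19.5 for DMSO and 1.84 for scramble, where counting error alone gives about 1. The gap followed base composition, since replicate 2 minus replicate 1 of shCSN5 had a median of -0.35 in the 25% of genes with the lowest GC content and of 0.49 in the 25% with the highest. The same rank correlation with GC content was 0.60 for shCSN5, 0.56 for DMSO, -0.30 for CSN5i-3 and -0.06 for scramble, over 17533 genes. The luminal markers named for LNCaP summed to 3134 to 3189 CPM (counts scaled to a common library total) with CSN5i-3, 6565 to 6684 with DMSO, 8256 to 8990 with shCSN5 and 8519 to 8580 with scramble. Of 5 leukocyte markers, PTPRC and CD3E were not among the joined genes, and the other 3 summed to 24.4 to 24.7 CPM with CSN5i-3 and to 1.73 or less in the other groups. CD68, a lysosomal protein, made nearly all of that sum. Of 6 mesenchymal markers 3 were joined and summed to 22.0 to 22.4 CPM with CSN5i-3, 3.37 to 3.77 with DMSO, 26 to 26.1 with shCSN5 and 7.27 to 7.51 with scramble, nearly all of it VIM. Of 5 fibroblast markers 3 were joined, at 10.2 to 10.3, 6.55 to 7.92, 9.40 to 18.4 and 13 to 14.8 CPM in the same 4 groups.

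The targeted gene could check the labels of the shCSN5 and scramble libraries only. It did not separate CSN5i-3 from DMSO, so it leaves those labels unchecked. COPS5 had 3.04 and 1.82 CPM in the shCSN5 libraries, against 52.3 and 51.4 CPM in the scramble libraries. With CSN5i-3 it had 49.5 and 55.1 CPM, against 50.5 and 47.5 CPM with DMSO. The shCSN5 libraries were far below all the others, and the remaining 3 groups lay close together. The shCSN5 change was -4.42 ± 0.21 (log2 ± SE from edgeR, n = 2 libraries a group, as in all that follows), the CSN5i-3 change 0.09 ± 0.17, and the difference 4.51 ± 0.26 with an edgeR adjusted p of 6.21e-05. The 95% interval of the difference ran from 3.91 to 5.11, and the change with CSN5i-3 was not called (edgeR adjusted p = 0.686).

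Both agents changed a large share of the transcriptome, and 3974 genes were called for both agents. CSN5i-3 changed 7328 of 17846 genes (41.1%), 3436 higher and 3892 lower. The shRNA changed 7082 genes (39.7%), 4105 higher and 2977 lower. Of these, 3502 went in the same direction, which is 47.8% of the inhibitor calls and 49.4% of the knockdown calls. The inhibitor count was 4438 and 4660 without a CSN5i-3 library, and the knockdown count was 4305 and 4405 without a scramble library. The 2 changes had a Pearson correlation of 0.53 over all genes tested and of 0.68 over the 11019 genes with a mean of at least 5 CPM, a description across genes, which are not independent replicates.

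The difference itself was called for 3803 genes (21.3%), at an adjusted p under 0.05 by edgeR's quasi-likelihood test. It was above 0 for 1218 genes (6.83%) and below 0 for 2585 (14.5%), so 68.0% of the calls lay below 0. The median difference over all genes was -0.09, and it was 0.04 without shCSN5 replicate 2. The share below 0 depended on the libraries and on base composition. It was 55.0% of 6620 calls once the GC trend of each library was removed, and 49.4% of 7862 calls without shCSN5 replicate 2. Leaving out other single libraries gave 5361 calls without shCSN5 replicate 1, 2292 and 1983 without a DMSO library, 1666 and 1501 without a CSN5i-3 library, and 1582 and 1503 without a scramble library. Among the 2585 genes below 0, 1016 had risen with shCSN5 alone, 684 had fallen with CSN5i-3 alone, 344 were called in opposite directions, 256 had fallen further with CSN5i-3 and 239 had risen further with shCSN5. The 46 others were called for neither agent. Among the 1218 above 0, 411 had risen with CSN5i-3 alone, 396 had fallen with shCSN5 alone, 171 had risen further with CSN5i-3, 128 were called in opposite directions, 93 had fallen further with shCSN5 and 19 were called for neither.

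**Figure D1:**
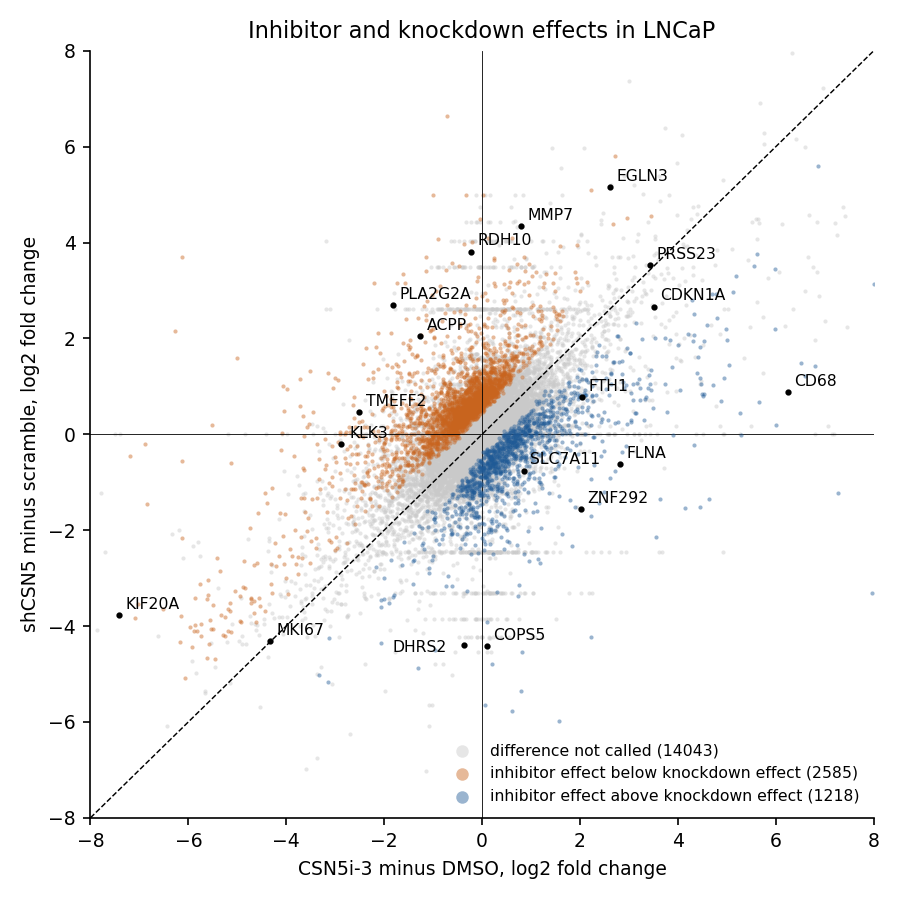
Each point is 1 of 17846 genes, with its CSN5i-3 minus DMSO change on the horizontal axis and its shCSN5 minus scramble change on the vertical axis, both log2, and 10 genes lie outside the limit of 8 log2 units. Blue points (1218) lie to the right of the dashed line of equal change and orange points (2585) to its left, and luminal genes such as TMEFF2 and ACPP lie far to the left while MKI67 and PRSS23 lie on the line.

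Genes induced by androgen fell with the inhibitor and split both ways with the shRNA. Of 25 tested members of 26 (STEAP4 was not tested), 17 fell and 4 rose with CSN5i-3 (21.8% and 19.3% of all genes), with a median change of -0.93. With shCSN5, 7 fell and 8 rose (16.7% and 23% of all genes), with a median of -0.02. The difference was called below 0 for 18 members and above 0 for 3 (14.5% and 6.83% of all genes), with a median of -1.28, beside -0.09 over all genes. The median stayed between -1.32 and -1.08 under 17 alternatives, and 14 to 20 members lay below 0 with 1 library left out.

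KLK3, whose androgen response element is printed above, had 357 and 355 CPM with CSN5i-3, against 2549 and 2683 CPM with DMSO. It had 2783 and 2917 CPM with shCSN5, against 3247 and 3329 CPM with scramble. The CSN5i-3 libraries lay far below all the others, and the shCSN5 libraries only a little below their control. The changes were -2.88 ± 0.08 with CSN5i-3 and -0.21 ± 0.08 with shCSN5, the second not called (edgeR adjusted p = 0.0591), and the difference was -2.67 ± 0.11 (edgeR adjusted p = 2.9e-05). KLK2, a kallikrein protease with the same element, had 46.4 and 42.6 CPM with CSN5i-3 and 258 and 262 CPM with DMSO, beside 304 and 292 CPM with shCSN5 and 399 and 395 CPM with scramble. It fell with both agents, by 2.54 and 0.41 log2 units, and its difference was -2.13 ± 0.12.

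A second set of androgen-linked genes went in opposite directions. TMPRSS2, a membrane serine protease, had 199.8 and 194 CPM with CSN5i-3, against 346 and 361 CPM with DMSO. It had 709 and 684 CPM with shCSN5, against 362 and 364 CPM with scramble. The 2 controls were close to each other, and the treated groups lay on either side of them. The changes were -0.84 ± 0.08 and 0.94 ± 0.08, and the difference was -1.78 ± 0.11 (edgeR adjusted p = 9.38e-05). ACPP, prostatic acid phosphatase, showed the widest such gap, with 24.7 and 25.3 CPM with CSN5i-3 and 62.0 and 58.1 CPM with DMSO, beside 323 and 254 CPM with shCSN5 and 70.2 and 69.2 CPM with scramble. Its difference was -3.32 ± 0.18 (edgeR adjusted p = 4.83e-05). RAB3B, a vesicle GTPase, changed by -0.93 ± 0.12 with CSN5i-3 and 0.80 ± 0.12 with shCSN5. PMEPA1, a membrane adaptor of TGF-beta signalling, changed by -0.60 ± 0.10 and 0.78 ± 0.10, ACSL3, an acyl-CoA synthetase, by -0.62 ± 0.13 and 0.66 ± 0.13, and ABCC4, an export pump, by -0.53 ± 0.12 and 0.68 ± 0.12. Members that fell with CSN5i-3 and were not called with shCSN5 included FKBP5, a receptor co-chaperone (-1.65 ± 0.13 and 0.13 ± 0.13), SLC45A3 or prostein (-2.33 ± 0.14 and -0.36 ± 0.13) and HPGD, which breaks down prostaglandins (-3.54 ± 0.27 and 0.21 ± 0.18). The 3 members above 0 were MAF and SNAI2, both transcription factors, and ZBTB10, a zinc finger repressor, with differences of 1.31 ± 0.19, 2.14 ± 0.30 and 1.52 ± 0.17.

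Over all genes the median difference was -0.09, and 14.5% were called below 0. Luminal prostate markers, 14 of 15 tested (CD24 was not), gave a median difference of -0.59. The difference was called below 0 for 7 of them (6 to 11 with 1 library left out), and the other 7 were not called. TMEFF2, a transmembrane proteoglycan of prostate, had 17.8 and 17.8 CPM with CSN5i-3 and 98.3 and 104 CPM with DMSO, beside 435 and 377 CPM with shCSN5 and 295 and 296 CPM with scramble. It fell with the inhibitor and rose with the shRNA, and its difference was -2.96 ± 0.14 (edgeR adjusted p = 4.03e-05). FOLH1, prostate-specific membrane antigen, had 424 and 441 CPM with CSN5i-3 and 1029.8 and 984 CPM with DMSO, beside 1421 and 1101 CPM with shCSN5 and 897 and 883 CPM with scramble, a difference of -1.72 ± 0.17. FOXA1, the pioneer factor of luminal cells, changed by -0.73 ± 0.09 with CSN5i-3 and 0.24 ± 0.09 with shCSN5, the second not called, with a difference of -0.98 ± 0.13. The luminal keratins did not follow: KRT8 rose by 1.3 ± 0.18 with CSN5i-3 and 1.04 ± 0.18 with shCSN5, and KRT18 by 0.73 ± 0.09 and 0.48 ± 0.09. Their differences of 0.26 ± 0.25 and 0.25 ± 0.12 were not called, although both were called without shCSN5 replicate 2, at 0.72 and 0.44. In these bulk libraries fewer cells of a type and less RNA per cell cannot be told apart.

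**Figure D2:**
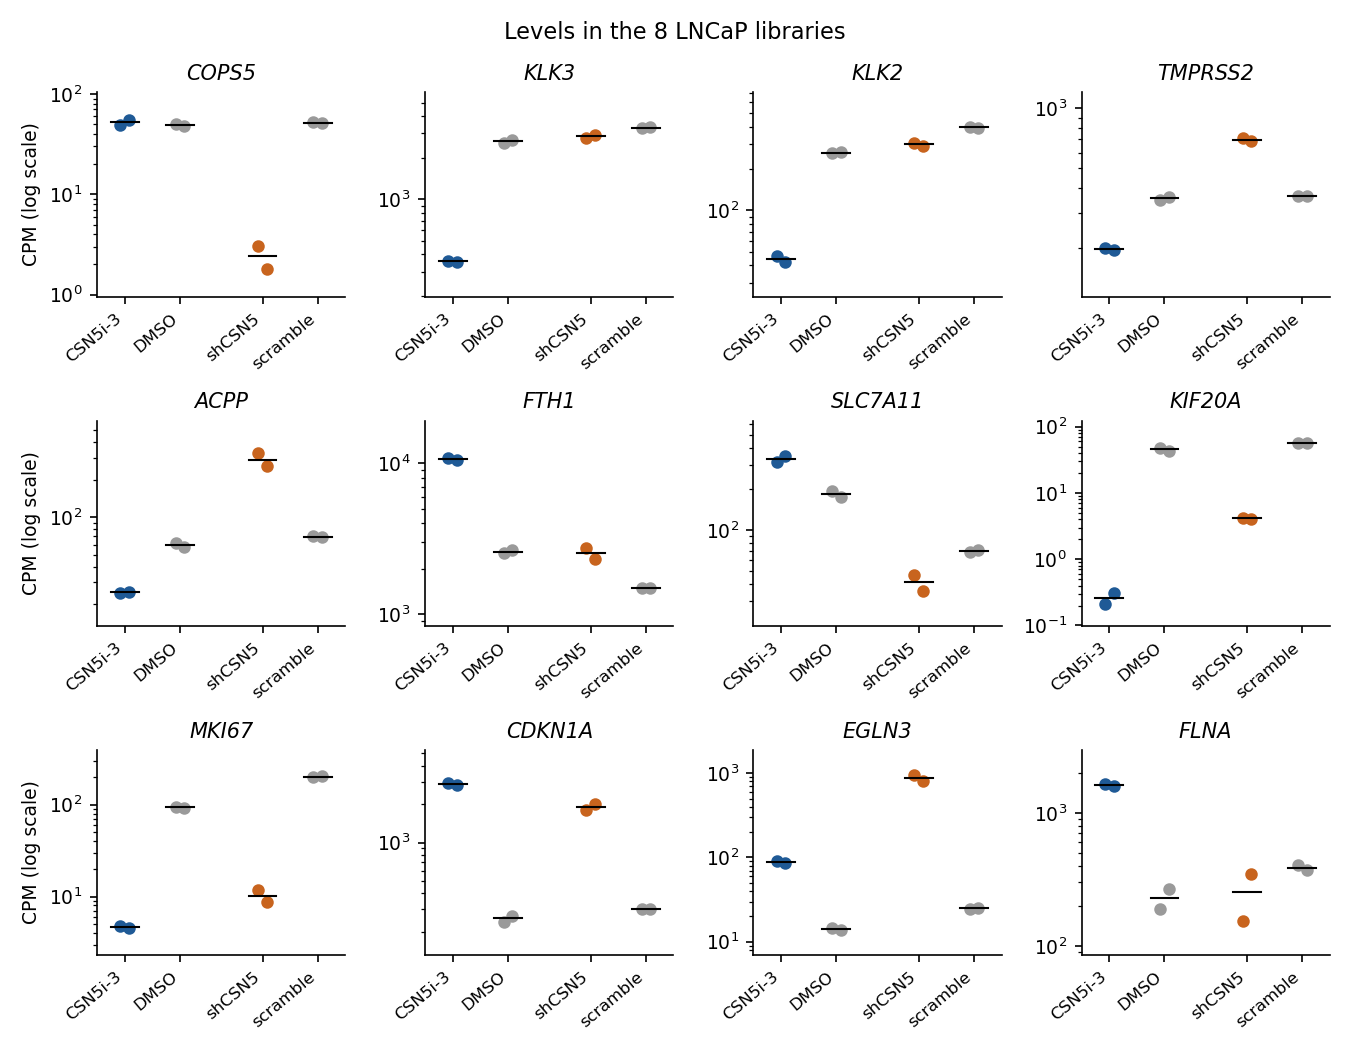
Level of 12 genes in each of the 8 libraries, in CPM on a log scale, with CSN5i-3 (blue) left of DMSO (grey), then shCSN5 (orange) left of scramble (grey); bars are group means. COPS5 is low in the 2 shCSN5 libraries alone, KLK3 is low in the 2 CSN5i-3 libraries alone, and FLNA spreads widely between the 2 shCSN5 libraries.

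Mitotic genes fell with both agents, and most fell further with the inhibitor. All 28 members of the G2/M and mitotic spindle list fell with each agent, beside 21.8% of all genes with CSN5i-3 and 16.7% with shCSN5. Their median change was -5.22 with CSN5i-3 and -3.89 with shCSN5. The difference was called below 0 for 20 and above 0 for 2 (14.5% and 6.83% of all genes), with a median of -1.20. With 1 library left out, 15 to 21 members lay below 0.

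KIF20A, a kinesin of cytokinesis, had 0.212 and 0.311 CPM with CSN5i-3, against 47.8 and 43.6 CPM with DMSO. It had 4.20 and 4.08 CPM with shCSN5, against 57.6 and 56.1 CPM with scramble. Both agents put it far below the controls, and the CSN5i-3 libraries lay well below the shCSN5 libraries. The changes were -7.42 ± 0.18 and -3.78 ± 0.14, and the difference -3.64 ± 0.23 (edgeR adjusted p = 0.000104). TOP2A, the topoisomerase whose promoter is printed above, had 1.27 and 0.934 CPM with CSN5i-3 and 82.3 and 75.2 CPM with DMSO, beside 4.08 and 4.12 CPM with shCSN5 and 81.5 and 82.8 CPM with scramble, a difference of -1.84 ± 0.21. CDC20, which switches on the anaphase-promoting complex and whose promoter is printed above, had 1.27 and 1.32 CPM with CSN5i-3 and 75.6 and 82.7 CPM with DMSO, beside 5.89 and 5.39 CPM with shCSN5 and 118 and 125 CPM with scramble, a difference of -1.50 ± 0.17. Both genes were lowest in the CSN5i-3 libraries and next lowest in the shCSN5 libraries. BIRC5, or survivin, and BUB1, a checkpoint kinase, had differences of -1.73 ± 0.15 and -2.51 ± 0.27. CENPE, a kinetochore motor, went the other way, with 1.80 and 1.56 CPM with CSN5i-3 and 16.1 and 13.7 CPM with DMSO, beside 0.616 and 0.328 CPM with shCSN5 and 16.7 and 17.1 CPM with scramble. Its difference was 2.01 ± 0.32 (edgeR adjusted p = 0.00402), and limma voom with library weights did not call it (adjusted p = 0.0641).

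Replication genes fell with both agents to similar medians. In the origin licensing, G1/S and DNA replication list, 27 of 28 members fell with CSN5i-3 (median -2.46) and 25 with shCSN5 (median -2.43), beside 21.8% and 16.7% of all genes. The difference was called below 0 for 10 and above 0 for 2 (14.5% and 6.83% of all genes), with a median of -0.35. With any 1 CSN5i-3, DMSO or scramble library left out the count below 0 was 2 to 6, and without an shCSN5 library it was 11 to 14. RRM2, the small subunit of ribonucleotide reductase, fell by 5.57 log2 units with CSN5i-3 and 3.88 with shCSN5, and MCM6, of the replicative helicase, by 2.55 and 1.49. MCM7, of the same helicase, fell more with shCSN5 (-2.62 ± 0.09) than with CSN5i-3 (-1.86 ± 0.09), a difference of 0.77 ± 0.12 (edgeR adjusted p = 0.0038). Homologous recombination and Fanconi genes fell to much the same depth, where 21.8% of all genes fell with CSN5i-3 and 16.7% with shCSN5. Over all 16 tested members, medians were -3.09 with CSN5i-3, where 15 fell, and -2.98 with shCSN5, where 14 fell. Their median difference was -0.09, with 4 members below 0 and 12 not called, and with 1 to 5 below when 1 library was left out. MKI67, the proliferation marker Ki-67, had 4.79 and 4.53 CPM with CSN5i-3 and 94.7 and 92.4 CPM with DMSO, beside 11.7 and 8.63 CPM with shCSN5 and 199 and 203 CPM with scramble. Its levels differed between the controls but its changes were nearly the same, -4.33 ± 0.16 and -4.31 ± 0.15, with an interval of the difference from -0.46 to 0.42.

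**Figure D3:**
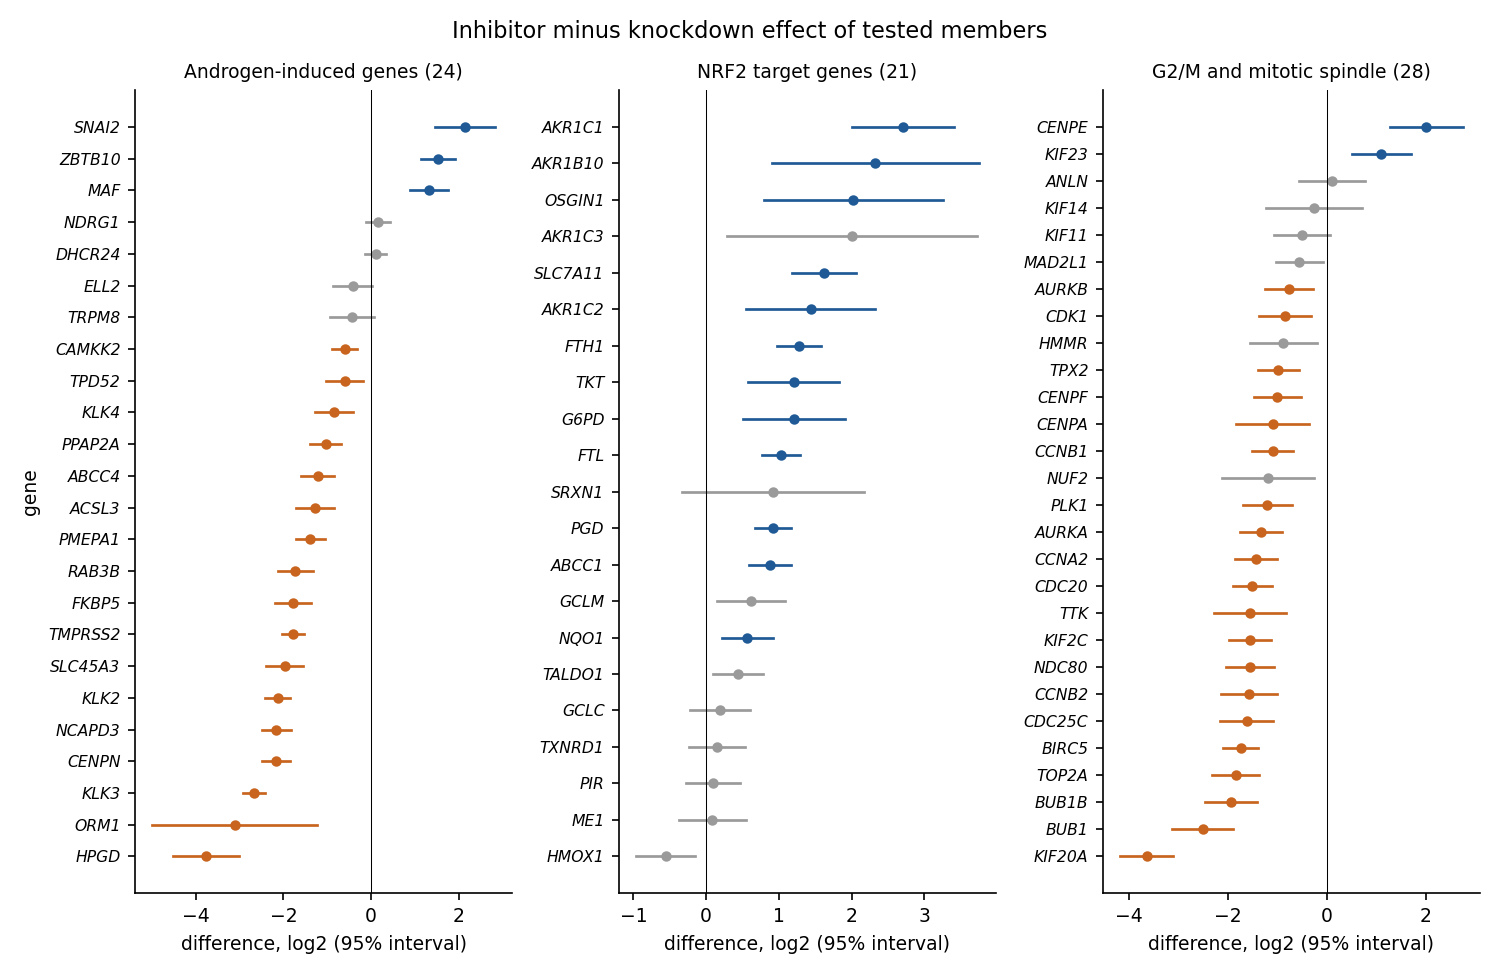
Difference (inhibitor minus knockdown effect, log2) of tested members of the androgen-induced, NRF2 and G2/M lists with its 95% interval, blue where called above 0, orange where called below 0 and grey where not called. Of the androgen-induced genes drawn 17 of 24 lie below 0 and called, of the NRF2 members 12 of 21 lie above, and of the G2/M members 20 of 28 lie below.

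Targets of p53 rose with both agents. Of 25 tested members of 26 (EDA2R was not tested), 22 rose with CSN5i-3 (median 1.41) and 23 with shCSN5 (median 1.20), beside 19.3% and 23% of all genes, and the others were not called. The difference was called for 5 above and 5 below 0 (6.83% and 14.5% of all genes), with a median of 0.26, and with 1 library left out 2 to 13 were above and 2 to 6 below. CDKN1A, the cell cycle inhibitor p21, had 2935 and 2844 CPM with CSN5i-3 and 241 and 268 CPM with DMSO, beside 1807 and 2016 CPM with shCSN5 and 300.5 and 303 CPM with scramble. It was high in all 4 treated libraries and rose further with CSN5i-3, with changes of 3.5 ± 0.10 and 2.66 ± 0.10 and a difference of 0.84 ± 0.13 (edgeR adjusted p = 0.00332). PLK2, a kinase of stressed cells, and SESN1, a sestrin, rose with the shRNA alone. PLK2 had 36.5 and 37.2 CPM with CSN5i-3 and 31.2 and 32.7 CPM with DMSO, beside 219 and 172 CPM with shCSN5 and 38.9 and 43.4 CPM with scramble, a difference of -2.04 ± 0.19. SESN1 changed by 0.17 ± 0.14 with CSN5i-3, which was not called, and by 1.49 ± 0.14 with shCSN5, a difference of -1.32 ± 0.19. MDM2, the ubiquitin ligase of p53, rose by 1.43 ± 0.13 and 1.0 ± 0.13, and its difference of 0.43 ± 0.18 was not called (edgeR adjusted p = 0.132). That difference was called by limma voom with library weights and with the GC trend removed (0.73). It was also called without shCSN5 replicate 1 (0.61) and without shCSN5 replicate 2 (0.38).

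Antioxidant genes stood higher with the inhibitor. Of 21 tested NRF2 targets of 22 (ABCC2 was not tested), 19 rose with CSN5i-3 (19.3% of all genes). The other 2 were not called, and the median was 1.40. With shCSN5, 11 rose and 1 fell (23% and 16.7% of all genes), with a median of 0.56. The difference was above 0 for 12 (6.83% of all genes) and not called for 9, with a median of 0.92 that stayed between 0.85 and 1.21 under 17 alternatives. The count above 0 was 6 without either CSN5i-3 library or either scramble library, 7 without DMSO replicate 1, 9 without DMSO replicate 2, and 16 and 15 without an shCSN5 library.

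SLC7A11, the cystine importer, had 318 and 352 CPM with CSN5i-3, against 194 and 175 CPM with DMSO. It had 47.2 and 35.9 CPM with shCSN5, against 68.7 and 71.7 CPM with scramble. It rose with the inhibitor and fell with the shRNA, and the groups of neither pair overlapped. The difference was 1.62 ± 0.19 (edgeR adjusted p = 0.00118). FTH1, the ferritin heavy chain, had 10820.0 and 10495 CPM with CSN5i-3 and 2523 and 2655 CPM with DMSO, beside 2747 and 2317 CPM with shCSN5 and 1480.2 and 1491 CPM with scramble. It has many processed copies in the genome that share its reads, so its counts are uncertain, and its difference was 1.27 ± 0.13. FTL, the ferritin light chain, rose by 1.02 ± 0.08 with CSN5i-3 and changed by -0.01 ± 0.08 with shCSN5, which was not called. PGD, a pentose phosphate enzyme whose promoter is printed above, had 472 and 485 CPM with CSN5i-3 and 273 and 272 CPM with DMSO, beside 403 and 399 CPM with shCSN5 and 437 and 424 CPM with scramble. It rose with CSN5i-3 alone, with a difference of 0.91 ± 0.11 (edgeR adjusted p = 0.00118). TXNRD1, thioredoxin reductase, rose with both agents. It had 1764 and 1816 CPM with CSN5i-3 and 396 and 371 CPM with DMSO, beside 2141 and 1646 CPM with shCSN5 and 449 and 450.4 CPM with scramble, with changes of 2.22 ± 0.12 and 2.07 ± 0.12 and an interval of the difference from -0.24 to 0.53. HMOX1, heme oxygenase, rose by 1.76 ± 0.13 and 2.31 ± 0.13, and its difference of -0.55 ± 0.18 was not called (edgeR adjusted p = 0.0586). Without shCSN5 replicate 1 the differences of TXNRD1 (0.33) and HMOX1 (-0.70) were called, and so they were with the GC trend removed (0.53 and -0.76). Limma voom with library weights called the difference of HMOX1 too. AKR1C1, an aldo-keto reductase with near-identical paralogs whose reads may be shared, had a difference of 2.71 ± 0.31.

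The amino acid stress programme of ATF4 moved the same way. Of 22 members, 11 rose and 5 fell with CSN5i-3 (median 0.39), beside 19.3% and 21.8% of all genes. With shCSN5, 6 rose and 8 fell (median -0.29), beside 23% and 16.7% of all genes. The difference was above 0 for 9 and below 0 for 1 (6.83% and 14.5% of all genes), with a median of 0.39, and with 1 library left out 5 to 14 were above. TRIB3, a pseudokinase, had 773 and 733 CPM with CSN5i-3 and 478 and 558 CPM with DMSO, beside 88.3 and 98.3 CPM with shCSN5 and 117 and 114 CPM with scramble, a rise with the inhibitor and a fall with the shRNA. DDIT3, or CHOP, rose by 1.39 ± 0.14 and 1.43 ± 0.14, with an interval of the difference from -0.49 to 0.40, and ATF3, a stress-induced factor, rose by 2.48 ± 0.11 and 2.15 ± 0.11. The difference of ATF3 was not called, but it was called at 0.47 without shCSN5 replicate 1, at 0.34 without shCSN5 replicate 2 and at 0.68 with the GC trend removed. Among the endoplasmic reticulum chaperones 2 of 18 lay above and 4 below 0, and HERPUD1, a protein of membrane-bound degradation, rose with shCSN5 alone, with changes of -0.13 ± 0.13 and 1.40 ± 0.13 and a difference of -1.52 ± 0.18. Cytosolic heat shock genes had 1 of 13 above and 2 below 0, and proteasome subunits 4 of 29 above and 3 below, against backgrounds of 6.83% and 14.5%. With 1 library left out the chaperones had 1 to 5 above and 2 to 10 below, the heat shock genes 1 to 3 above and 0 to 4 below, and the proteasome subunits 0 to 9 in either direction.

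Genes of inflammatory and growth factor signalling rose with both agents. Of 18 tested NF-kB targets, 14 rose with CSN5i-3 (median 1.56) and 11 with shCSN5 (median 1.09), beside 19.3% and 23% of all genes. The difference was above 0 for 6 and below 0 for 1 (3 to 11 above with 1 library left out), where 6.83% of all genes lay above and 14.5% below. IL32, a cytokine, had 56.0 and 57.1 CPM with CSN5i-3 and 3.03 and 3.10 CPM with DMSO, beside 21 and 24.3 CPM with shCSN5 and 5.79 and 4.85 CPM with scramble, a difference of 2.12 ± 0.19. NFKB1, the p105 subunit, went in opposite directions, by -0.35 ± 0.11 with CSN5i-3 and 1.10 ± 0.11 with shCSN5. Immediate early genes and feedback genes of ERK had 8 of 20 above and 4 below 0, with a median of 0.44, and 3 to 10 above and 3 to 4 below with 1 library left out, and the share below was near that of all genes. DUSP5, a nuclear phosphatase of ERK, had 98.2 and 99.3 CPM with CSN5i-3 and 2.82 and 2.83 CPM with DMSO, beside 12.4 and 12.7 CPM with shCSN5 and 1.66 and 1.53 CPM with scramble, a rise in both and a difference of 2.15 ± 0.17. SPRY4, another inhibitor of this pathway, rose more with shCSN5, by 3.35 ± 0.12 against 1.31 ± 0.12 with CSN5i-3. MYC fell with CSN5i-3 by 1.53 log2 units and changed by -0.22 ± 0.11 with shCSN5, which was not called (edgeR adjusted p = 0.153). TGF-beta, SMAD and YAP targets rose for 12 of 15 with CSN5i-3 and 10 with shCSN5, with 3 differences above and 2 below 0 (2 to 5 above and 1 to 3 below with 1 library left out), the second near the 14.5% of all genes. Apoptosis regulators had 7 of 20 above and 3 below 0, with 2 to 10 above and 0 to 4 below when 1 library was left out, and their share below 0 was near that of all genes too.

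In the machinery on which CSN5 acts, the difference was called for 3 of 10 COP9 signalosome subunits, 5 of 24 cullins and neddylation enzymes and 7 of 26 substrate receptors of cullin ligases, against 21.3% of all genes. The 3 subunits were COPS2, COPS8 and COPS5, which is itself the target of the shRNA. Of the 10 COP9 signalosome subunits, 1 fell with CSN5i-3 and 9 were not called, while 2 rose and 3 fell with shCSN5, COPS5 among these. COPS2 had 71.7 and 77.5 CPM with CSN5i-3 and 67.8 and 63.1 CPM with DMSO, beside 43.6 and 33.1 CPM with shCSN5 and 55.9 and 57.6 CPM with scramble, a difference of 0.76 ± 0.20. COPS8 had 56.3 and 58.8 CPM with CSN5i-3 and 65.3 and 61.4 CPM with DMSO, beside 125 and 96.3 CPM with shCSN5 and 62.9 and 66.9 CPM with scramble, a difference of -0.91 ± 0.19. Both calls were lost without CSN5i-3 replicate 1 (COPS2 0.81, COPS8 -0.88), CSN5i-3 replicate 2 (0.71 and -0.93), DMSO replicate 1 (0.85 and -0.82) and scramble replicate 1 (0.78 and -0.86). That of COPS2 was also lost without DMSO replicate 2 (0.70) and scramble replicate 2 (0.73). Cullins and neddylation enzymes had 1 of 24 above and 4 below 0 (0 to 5 above and 0 to 9 below with 1 library left out), close to the 6.83% and 14.5% of all genes, with medians of 0.12 with CSN5i-3 and 0.25 with shCSN5. Of the substrate receptors, 4 rose and 7 fell with CSN5i-3 (19.3% and 21.8% of all genes), with a median of -0.03, while 13 rose and 5 fell with shCSN5 (23% and 16.7% of all genes), with a median of 0.35. Their difference was below 0 for 6 and above 0 for 1, and below 0 for 2 to 14 with 1 library left out. SPOP, the CUL3 adaptor mutated in some prostate cancers, had 41.5 and 42.5 CPM with CSN5i-3 and 67.1 and 60.3 CPM with DMSO, beside 103 and 81.3 CPM with shCSN5 and 63.5 and 64.5 CPM with scramble. It fell with the inhibitor and rose with the shRNA, and its difference was -1.12 ± 0.18 (edgeR adjusted p = 0.00425). KLHL13, another CUL3 adaptor, changed by -1.47 ± 0.18 and 1.11 ± 0.16, a difference of -2.58 ± 0.24.

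Metabolic lists had median differences between -0.27 and 0.11. Fatty acid synthesis genes fell for 9 of 12 with CSN5i-3 and 6 with shCSN5 (21.8% and 16.7% of all genes). They had 4 differences below 0 (14.5% of all genes) and a median difference of 0.01. Cholesterol synthesis genes had 2 of 21 above 0, hypoxia and glycolysis genes 3 of 20 above and 4 below, and genes of MYC and ribosome biogenesis 2 of 23 above and 5 below, against 6.83% above and 14.5% below over all genes. Oxidative phosphorylation genes had 5 of 22 below and 17 not called, with medians of -0.20 with CSN5i-3 and 0.10 with shCSN5, and autophagy and lysosome genes 4 of 20 above and 3 below. EGLN3, an oxygen-sensing hydroxylase, had 90.3 and 85.4 CPM with CSN5i-3, against 14.6 and 13.9 CPM with DMSO. It had 952 and 818 CPM with shCSN5, against 24.6 and 25.2 CPM with scramble. It rose with both agents, and the shCSN5 libraries stood far above the CSN5i-3 libraries, with a difference of -2.53 ± 0.14 (edgeR adjusted p = 5.67e-05). Histone genes whose transcripts depend on replication had 4 of 9 below 0 and 5 not called, and HIST2H2BE, which has close paralogs that may share its reads, changed by 0.40 ± 0.10 with CSN5i-3 and 1.64 ± 0.10 with shCSN5. With 1 library left out these counts ran from 1 to 10 above and 0 to 2 below for cholesterol synthesis, 2 to 8 and 2 to 7 for hypoxia, 0 to 6 and 1 to 10 for MYC and ribosome biogenesis, 0 to 5 and 0 to 12 for oxidative phosphorylation, 1 to 10 and 0 to 6 for autophagy, and 0 to 1 and 2 to 5 for histones.

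**Figure D4:**
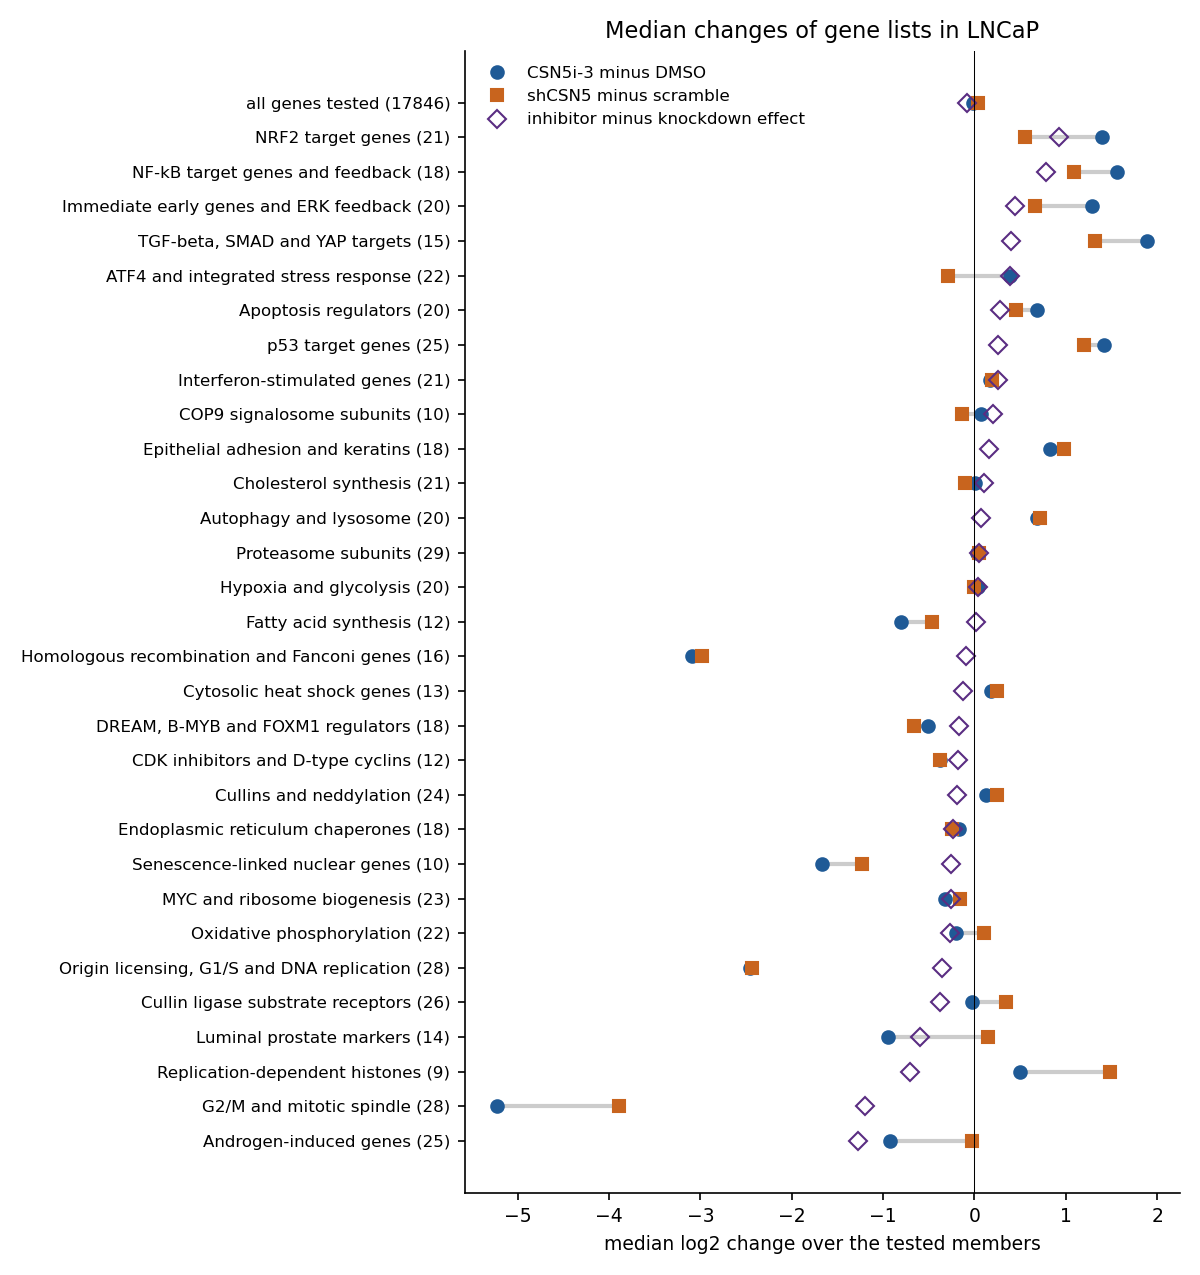
Median log2 change of the tested members of each gene list (number in brackets) with CSN5i-3 (blue circles) and shCSN5 (orange squares), and the median difference of the 2 changes (open diamonds). The androgen-induced list has the lowest median difference (-1.28) and the NRF2 list the highest (0.92) among the lists drawn, beside -0.09 over all 17846 genes.

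Among genes with at least 5 CPM in 1 group and 0.5 CPM in every group, the largest positive differences beside COPS5 had several forms. DHRS2, a short-chain dehydrogenase, had 1.77 and 1.96 CPM with CSN5i-3 and 2.49 and 2.37 CPM with DMSO, beside 1.77 and 1.89 CPM with shCSN5 and 37.5 and 40.1 CPM with scramble. Only the scramble libraries held much of it, and the controls of the 2 projects were far apart. Its difference of 4.03 ± 0.20 lies in the step from scramble to shCSN5. The parts of the shRNA, the control and the project in that step cannot be told apart. MYL9, a myosin light chain, had 71.4 and 68.6 CPM with CSN5i-3 and 2.98 and 3.18 CPM with DMSO, beside 2.89 and 5.25 CPM with shCSN5 and 2.35 and 2.34 CPM with scramble, a difference of 3.71 ± 0.34 that came from a rise with CSN5i-3. FLNA, or filamin A, had 1645 and 1582 CPM with CSN5i-3 and 188 and 267 CPM with DMSO, beside 155 and 349 CPM with shCSN5 and 402 and 372 CPM with scramble. The CSN5i-3 libraries were far above the rest, and the 2 shCSN5 libraries differed from each other by more than the controls did. Its difference was 3.44 ± 0.46 (edgeR adjusted p = 0.00192). CYR61, a matricellular target of YAP, rose by 2.85 ± 0.11 with CSN5i-3 and changed by -0.36 ± 0.11 with shCSN5. ZNF292, a zinc finger protein, and CNN2, calponin 2, went in opposite directions. ZNF292 had 39.5 and 43.6 CPM with CSN5i-3 and 11.1 and 9.36 CPM with DMSO, beside 3.77 and 3.24 CPM with shCSN5 and 9.90 and 10.8 CPM with scramble, a difference of 3.59 ± 0.20. CNN2 changed by 1.16 ± 0.15 and -0.99 ± 0.15. MUC20 and PRSS1, with differences of 3.28 ± 0.33 and 3.16 ± 0.23, belong to families of near-identical copies whose reads may be shared. CD68, a myeloid marker below 0.5 CPM in 2 groups, had 25.3 and 24.9 CPM with CSN5i-3 and 0.282 and 0.370 CPM with DMSO, beside 0.501 and 0.583 CPM with shCSN5 and 0.157 and 0.441 CPM with scramble, a difference of 5.37 ± 0.58. Of 9 leukocyte markers 3 were tested, and both others were low. ITGAM, an integrin chain named after its values were seen, had 0.820 and 0.623 CPM with CSN5i-3 and 0.0770 and 0 CPM with DMSO, beside 1.69 and 1.09 CPM with shCSN5 and 0.376 and 0.305 CPM with scramble, and was called higher with both agents by edgeR (adjusted p = 0.00165 and 0.00801). LYZ had 0.0794 and 0.0240 CPM with CSN5i-3 and 0.0770 and 0.123 CPM with DMSO, beside 1.0 and 1.13 CPM with shCSN5 and 0.0939 and 0.170 CPM with scramble, and was called higher with shCSN5. CD14, which was not tested, had 0.255 CPM in both CSN5i-3 libraries and 0 in both DMSO libraries, beside 0.0720 and 0.0360 CPM with shCSN5 and 0 in both scramble libraries, scaled by library totals alone. The part of other cells in the CD68 level was not tested.

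At the same minimum levels, the largest negative differences came mostly from genes that shCSN5 raised. PLA2G2A, a secreted phospholipase, had 8.68 and 9.10 CPM with CSN5i-3 and 31.8 and 30.6 CPM with DMSO, beside 53.3 and 44.9 CPM with shCSN5 and 7.39 and 7.77 CPM with scramble. It fell with the inhibitor and rose with the shRNA, a difference of -4.50 ± 0.18 (edgeR adjusted p = 2.9e-05). RDH10, a retinol dehydrogenase, had 7.51 and 8.19 CPM with CSN5i-3 and 9.45 and 8.82 CPM with DMSO, beside 159.6 and 131 CPM with shCSN5 and 9.71 and 11 CPM with scramble. MMP7, matrilysin, had 4.76 and 4.96 CPM with CSN5i-3 and 3.13 and 2.46 CPM with DMSO, beside 498 and 455 CPM with shCSN5 and 24.1 and 22.7 CPM with scramble. The shCSN5 libraries were far above the other groups for both, with differences of -4.03 ± 0.20 and -3.55 ± 0.18. DDIT4L, a regulator of mTOR signalling, changed by -1.85 ± 0.21 with CSN5i-3 and 2.12 ± 0.16 with shCSN5, and SCD5, a stearoyl-CoA desaturase, by -1.62 ± 0.20 and 1.91 ± 0.21. ABCC11, an export pump present at low level, had a difference of -3.97 ± 0.39. FAM83D, a spindle protein, fell by 6.13 log2 units with CSN5i-3 and 2.17 with shCSN5. TRGC1, a constant region of the T cell receptor gamma locus with a close copy that may share its reads, had a difference of -4.24 ± 0.22. Mean levels with DMSO and scramble were 3.73 and 17.4 CPM for DDIT4L, 8.01 and 2.87 CPM for SCD5, and 7.86 and 30.9 CPM for TRGC1. Those controls were also far apart for PLA2G2A and MMP7, and the cause was not tested.

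Opposite directions, with both changes and the difference called by edgeR, were found for 472 genes (2.64%). CSN5i-3 raised 128 of them (0.717%) and lowered 344 (1.93%). The count was 169 and 194 without a CSN5i-3 library, 249 and 264 without a DMSO library, 176 and 194 without a scramble library, and 834 and 1499 without an shCSN5 library. DPP4, a membrane peptidase, had 3.89 and 4.96 CPM with CSN5i-3 and 14 and 12.6 CPM with DMSO, beside 43.1 and 31.7 CPM with shCSN5 and 13 and 13 CPM with scramble. It lay below its control in one pair and above it in the other, a difference of -3.11 ± 0.25. The same response, called in both with the 95% interval of the difference within 0.5 log2 units of 0, was found for 478 genes (2.68%), 253 higher (1.42%) and 225 lower (1.26%). That count was 61 and 96 without a CSN5i-3 library, 204 and 107 without a DMSO library, 54 and 98 without a scramble library, and 1462 and 1195 without an shCSN5 library. PRSS23, a secreted protease, had 129 and 128 CPM with CSN5i-3 and 12 and 11.9 CPM with DMSO, beside 199 and 162 CPM with shCSN5 and 15.6 and 15.9 CPM with scramble. Its changes were 3.43 ± 0.13 and 3.52 ± 0.13, with an interval of the difference from -0.47 to 0.29. SIPA1L2, a GTPase-activating protein, ID2, an inhibitor of differentiation, and OPTN, an autophagy receptor, rose likewise, with differences of -0.19 ± 0.13, -0.15 ± 0.15 and 0.04 ± 0.18. Among genes that fell alike, ARHGAP11A, a mitotic GTPase-activating protein, LMNB1, or lamin B1, and FEN1, the flap endonuclease, had differences of -0.07 ± 0.17, -0.18 ± 0.14 and 0.10 ± 0.13. Of these genes PRSS23 and OPTN were called above 0 once the GC trend was removed, at 0.26 and 0.41, and FEN1 without shCSN5 replicate 2, at 0.27.

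The same interaction in 22Rv1, a castration-resistant line with the same 5 µM dose and the same kinds of control, bears on how far the LNCaP pattern extends. A fit of all 16 libraries over 18531 genes called the LNCaP difference for 4219 (22.8%), 1890 above 0 (10.2%) and 2329 below 0 (12.6%). It called the 22Rv1 difference for 1256 (6.78%), 868 above 0 (4.68%) and 388 below 0 (2.09%). The LNCaP minus 22Rv1 contrast of the 2 differences was called for 2701 genes (14.6%), 904 above 0 (4.88%) and 1797 below 0 (9.7%). The count was 4187 without LNCaP shCSN5 replicate 2, 1718 without LNCaP CSN5i-3 replicate 1, 1723 and 1728 without an LNCaP scramble library, and 1665 and 1698 without 22Rv1 shCSN5 replicate 1 or 22Rv1 scramble replicate 2. Across all 18531 genes, low ones included, the differences of the 2 lines had a Pearson correlation of 0.03, from separate libraries and controls. Among genes called in both lines, 249 lay above 0 in both and 133 below 0 in both. Another 44 lay above 0 in LNCaP and below in 22Rv1, and 137 the other way. Androgen-induced genes had median differences of -1.14 in LNCaP and 0.02 in 22Rv1, with the contrast called below 0 for 14 of 25 and above for 1. Luminal markers had medians of -0.45 in LNCaP and 0.17 in 22Rv1, with 6 of 14 below and 8 not called, and NRF2 targets 1.05 in LNCaP and 0.12 in 22Rv1, with 7 above and 3 below of the 21 tested in both models. Homologous recombination genes differed the other way, with 0.05 in LNCaP and -0.77 in 22Rv1 and 6 of 16 above 0. Scaling over the 16 libraries moved the LNCaP median of all genes to 0.05, against -0.09 over the 8 libraries, and list medians of LNCaP in this fit carry that shift. COPS5 had a difference of 2.92 ± 0.21 in 22Rv1, where its shCSN5 change was -2.70, and the contrast of the lines was 1.73 ± 0.31 (edgeR adjusted p = 0.00342).

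**Figure D5:**
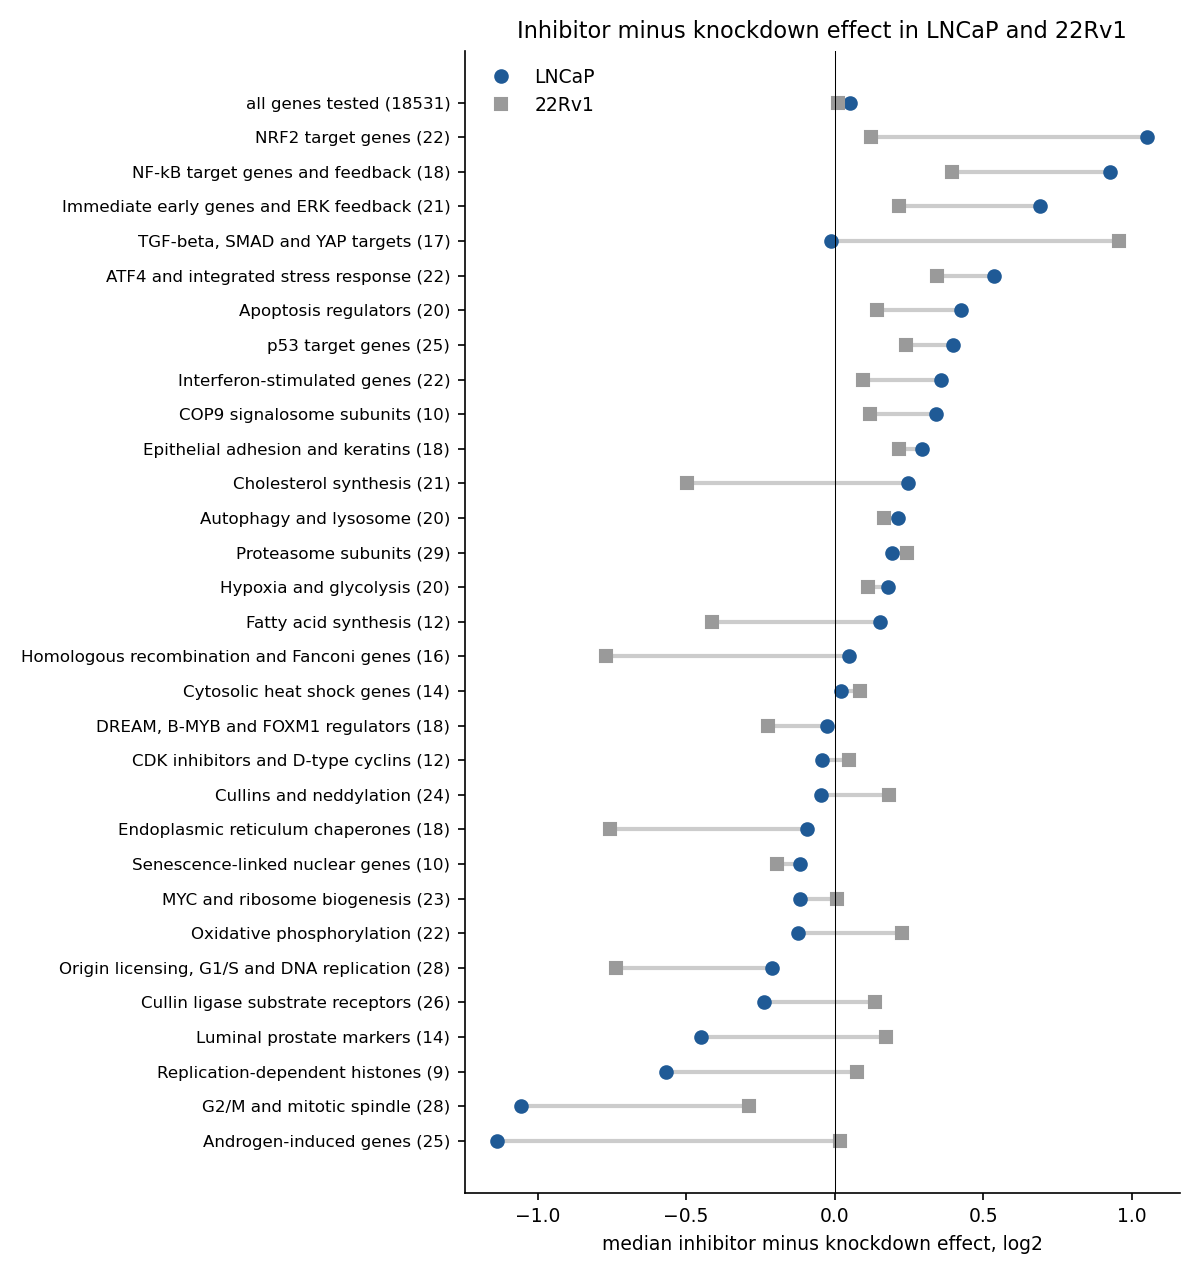
Median inhibitor minus knockdown difference (log2) of each gene list in LNCaP (blue circles) and 22Rv1 (grey squares), both from the fit of 16 libraries, with the number of tested genes in brackets. The androgen-induced and luminal lists lie below 0 in LNCaP and just above 0 in 22Rv1, and the NRF2 list lies at 1.05 in LNCaP and 0.12 in 22Rv1.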

How the data were processed

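Counts per gene and library were deposited by the authors, who used Partek Flow per the submitters' processing notes. Neither its version nor the aligner, the build or the counted strand is given in the sources used here. RNA was extracted with a Direct-Zol kit and sequenced on an Illumina instrument, per the labels. The deposited counts of LNCaP lie in 2 tables, 21549 symbols for CSN5i-3 and DMSO and 57445 Ensembl identifiers for shCSN5 and scramble. Genes whose highest count was under 3 were absent from the symbol table, and 21 symbols turned into dates were left out. Joining kept 98.5% to 99.3% of the counts, and 140 rows of the knockdown table with at least 5 CPM were not joined.

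Groups follow the titles of the samples. One model of the 8 libraries (edgeR 4.0.16 in R 4.3.3, quasi-likelihood F test, scaled by TMM and filtered by filterByExpr at 10 counts) gave both changes and their difference, with Benjamini-Hochberg adjustment over all 17846 genes and a threshold of 0.05. The SE was taken as the size of the log2 change over the square root of F, and 95% intervals use the t distribution with the degrees of freedom of the model. CPM are scaled with TMM factors, except summed markers, which use plain library totals. The comparison with 22Rv1 used 16 libraries and 18531 genes. Replicate numbers were not used as pairs, and same-numbered deviations correlated at -0.09 (CSN5i-3 and DMSO) and -0.01 (shCSN5 and scramble). Those deviations also carry the GC trends of single libraries, so the correlations cannot decide whether libraries were paired. Library totals of 20.6 to 43.8 M counts set the counting error.

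The members, the gene lists and the rules were chosen with earlier results of these data known. Genes named are COPS5, the 8 largest differences in each direction, up to 5 genes in each opposite direction, 4 genes of equal response in each direction, up to 2 members of each list in each direction by adjusted p, and the 5 largest differences between the lines in each direction. Levels of at least 5 CPM in 1 group and 0.5 CPM in every group were required of genes outside the lists. Another 28 genes, among them TMPRSS2, FOLH1, TOP2A, CDC20, PGD and TXNRD1, were named after their values were seen, and some genes that meet these rules are not reported here. Alternatives were other scalings and filters, DESeq2 1.42.0, limma 3.58.1 voom with library weights, a replicate block, separate models for each agent, single libraries left out and, chosen after seeing the data, removal of each library's GC trend (loess, span 0.5). In counts simulated from these libraries the model recovered 59 of 100 genes changed by 1 log2 unit and 92 of 100 changed by 2. It called 6 of 17332 unchanged genes. Those unchanged genes had equal treated and control levels, and the simulated replicates had no GC trend. The counts therefore do not give the recovery or the false calls of the real fit.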

Additional observations from a re-analysis of the deposited data

Results flagged for a closer look

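The LNCaP minus 22Rv1 contrast of the inhibitor minus knockdown difference was called for 2701 of 18531 genes by edgeR's interaction test, which marks a response that differs between the lines. The 5 largest values in each direction follow. DHRS2, a dehydrogenase that in LNCaP was high in the scramble libraries alone, had a contrast of 4.44 ± 0.23 (edgeR adjusted p = 1.18e-06), with a difference of -0.27 in 22Rv1. Of the immediate early factors, FOSB had a contrast of 3.66 ± 0.57 with a difference of -3.24 in 22Rv1, and EGR1 one of 3.55 ± 0.46 with -0.82 in 22Rv1. THOP1, a peptidase, had a contrast of 3.56 ± 0.62 and MUC20, a mucin with close copies, one of 3.54 ± 0.56. In LNCaP itself FOSB stayed near 1 CPM or less in all 8 libraries, and its difference was not called there.

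On the other side, PGC, a gastric protease zymogen, had a contrast of -5.00 ± 0.56 (edgeR adjusted p = 0.000216) with a difference of 1.66 in 22Rv1. DEFB132, a defensin, had -4.93 ± 0.39 with 1.68 in 22Rv1. AKAP12, a scaffold of protein kinase A, had -4.18 ± 0.36 with 1.52 in 22Rv1. SDC2, a syndecan, had -3.93 ± 0.24 with 1.76 in 22Rv1, and RBM24, an RNA-binding protein, had -3.90 ± 0.38 with 2.57 in 22Rv1. All 5 had a negative difference in LNCaP and a positive one in 22Rv1. These 10 contrasts kept their call under each alternative run for them (237 values). Line, project and tables change together here too, and their parts cannot be told apart.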

How the results depend on the processing

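Under 17 alternatives no called difference of a named gene reversed. Differences that were not called could change sign, such as those of MKI67 (-0.09 to 0.27) and PRSS23 (-0.11 to 0.26). Of 159 named genes, 105 kept the side of the threshold on which they stood. Another 43 lost a call, most of them when a CSN5i-3 or scramble library was left out. Of 34 list medians, 23 kept their sign throughout. Removing the GC trend of each library, an alternative chosen after seeing the data, gave 6620 genes for the difference, 1127 opposite, 2343 with the same response and 5443 for the LNCaP minus 22Rv1 contrast, and the cause of the gap between libraries was not tested. DESeq2 gave 277 opposite and 145 same responses, with 3098 genes for the difference, and the DESeq2 size factors in edgeR gave 3578, of which 60.7% lay below 0. With the replicate block the difference counted 2810, opposite genes 299, same responses 107 and the contrast of the lines 679. Whether the replicate numbers pair the libraries is not known, so which design is right cannot be told. With 1 library left out, the difference ranged from 1501 to 7862 genes, the CSN5i-3 effect from 4438 to 10361, the shCSN5 effect from 4305 to 9272, opposite genes from 169 to 1499, same responses from 54 to 1462 and the contrast of the lines from 1665 to 4187. The lone library left in a group was assumed to vary like the other groups. The count of genes with an unadjusted p under 0.05 for the difference was 6228. With 2 libraries a group, small differences and low genes were often beyond reach.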

Other observations

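Over all genes tested, 19.3% rose and 21.8% fell with CSN5i-3, 23% rose and 16.7% fell with shCSN5, and the difference was above 0 for 6.83% and below 0 for 14.5%. Against these shares, epithelial adhesion genes and keratins rose for 10 of 18 with CSN5i-3 and 11 with shCSN5, and the difference was above 0 for 4 and below 0 for 3 (2 to 9 above and 0 to 6 below with 1 library left out). Autophagy and lysosome genes rose for 11 of 20 with CSN5i-3 and 12 with shCSN5. Genes linked to the nuclei of senescent cells fell for 9 of 10 with each agent, and the difference was below 0 for 2 (0 to 3 above and 1 to 4 below with 1 library left out). Regulators of the DREAM complex, B-MYB and FOXM1 fell for 12 of 18 with CSN5i-3 and 11 with shCSN5, and the difference was above 0 for 1 and below 0 for 4 (0 to 5 above and 2 to 7 below). CDK inhibitors and D-type cyclins rose for 3 of 12 and fell for 5 with CSN5i-3, and rose for 3 and fell for 6 with shCSN5, with 2 differences above 0 and 3 below (1 to 4 in either direction). Interferon-stimulated genes rose for 8 of 21 with CSN5i-3 and for 5 with shCSN5, a share near that of all genes, and 3 differences above 0 and 1 below were 0 to 7 and 0 to 2 with 1 library left out. Mesenchymal genes had 2 of 8 tested members above 0, VIM and SNAI2 (1 to 3 with 1 library left out). The difference of VIM, 0.69 ± 0.18 by edgeR (adjusted p = 0.0266), lost its call in 7 of 17 alternatives, which were the replicate block and the removal of any CSN5i-3, DMSO or scramble library (adjusted p up to 0.123). The 3 tested neuroendocrine genes had a median difference of 0.02.

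SRXN1, sulfiredoxin, had 439 and 429.8 CPM with CSN5i-3 and 150.3 and 161 CPM with DMSO, beside 4.16 and 13.6 CPM with shCSN5 and 6.20 and 5.90 CPM with scramble. Its control levels in the 2 projects were far apart, and the cause was not tested. The difference was 0.92 ± 0.55, not called by edgeR (adjusted p = 0.27), and was called at 2.16 without shCSN5 replicate 2. Of 140 rows of the knockdown table with at least 5 CPM that were not joined, 98 had a symbol absent from the inhibitor table.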
